A study of Homo sapiens with 2 samples.

Results

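The 10 genes MUC1, MUC16, WFDC2, MSLN, FOLR1, PAX8, WT1, KLK6, KLK7 and LCN2, which serve as markers of ovarian tumours, were examined in RMG1 cells sorted by aldehyde dehydrogenase (ALDH) activity. They were chosen by name, as the gene probes that carry one of these 10 symbols on the arrays, out of 27267 genes with a probe. They had 14 probes in all, 2 each for MUC1, MUC16, WFDC2 and KLK6 and 1 each for the other 6 genes. RMG1 is an established line of ovarian clear cell carcinoma, grown in DMEM/F12 medium with serum. ALDEFLUOR is a fluorescent ALDH substrate that stays in cells with high ALDH activity. RNA of ALDEFLUOR positive cells (ALDH+) and of ALDEFLUOR negative cells (ALDH-) was labelled with Cy5 and Cy3 and hybridized together, on 2 arrays of 1 slide with the dyes exchanged. The extracts, 1 of each population and from 1 cell line, were the same on the second array as on the first. Each population was therefore 1 sample, no test between them was possible, and every SD given here is the technical SD of the 2 arrays. The sample labels and the results of the paper name RMG1, whereas its methods name AMOC2 as the source of the RNA. In RNA of a whole population, fewer cells that express a gene and less of its RNA per cell cannot be told apart.

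These markers come from a few families. MUC1 and MUC16 are membrane mucins, heavily glycosylated proteins of the apical cell surface whose shed parts are measured in blood as CA15-3 and CA125. WFDC2 (HE4) and LCN2 (neutrophil gelatinase-associated lipocalin) are small secreted proteins, MSLN (mesothelin, a binding partner of MUC16) and FOLR1 (folate receptor alpha) are held at the surface by a lipid anchor, and KLK6 and KLK7 are secreted serine proteases. PAX8 and WT1 are transcription factors used in pathology: PAX8 marks tumours of Müllerian and renal origin, and WT1 marks serous carcinoma and mesothelium and is usually absent from clear cell carcinoma.

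In RMG1 cells, 6 of the 10 markers were expressed above background in both populations: PAX8, FOLR1, LCN2, MUC1, WFDC2 and KLK6. WT1, MSLN and KLK7 were not well above background in either population, and MUC16 was well above background only in ALDH+ cells, on 1 of 2 arrays. None of the 6 differed by 2-fold. PAX8 was lower in ALDH+ cells (1.67-fold higher in ALDH- cells), LCN2 was higher in ALDH+ cells (1.58-fold), and the other 4 differed by less than 1.5-fold.

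A probe was called measured when it was well above background on both arrays in at least one population. This held for 6 of 10 markers (60%), against 50.3% of all genes on the arrays. In both populations it held for the same 6, against 46.7% of all genes. None of the 14 probes was saturated. Signals are given in scanner units. Because the dyes differed in the signal of spots that hold no human sequence, signals are compared only within a probe and within a dye. Such a comparison sets raw signals of the 2 arrays side by side, before normalization. The epithelial gene EPCAM, with a log2 ratio of 0.02, had 36629 in ALDH+ cells and 27282 in ALDH- cells in Cy5. In Cy3 it had 16791 and 13037. A higher raw signal in each dye is thus no support beyond the ratio. Spots that hold no human sequence (negative controls) had a median of 44.8 in Cy5 with ALDH+ cells and 43 in Cy5 with ALDH- cells, but of 134.1 in Cy3 with ALDH- cells and 126.4 in Cy3 with ALDH+ cells. Across 13720 measured genes, the median log2 ratio of ALDH+ to ALDH- cells was -0.0023, with quartiles of -0.187 and 0.146, and the median technical SD was 0.111.

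Each probe is 60 bases long. A value stands for the stretch of transcript that its probe reads, and MUC1, MUC16, WFDC2 and KLK6 were read at 2 sites. The probes of FOLR1, PAX8, WT1, KLK6 and KLK7 are not shown, since they may lie in untranslated regions. Those of MUC1, MUC16, WFDC2, LCN2 and MSLN are shown here, and each has at least 1 reading frame with no stop codon. The probes shown are written 5′ to 3′ in the sense of the transcript, in lower case with no part marked.
MUC1, probe 1: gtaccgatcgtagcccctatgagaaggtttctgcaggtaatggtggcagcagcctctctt
MUC1, probe 2: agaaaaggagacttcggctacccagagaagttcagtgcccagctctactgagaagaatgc
MUC16, probe 1: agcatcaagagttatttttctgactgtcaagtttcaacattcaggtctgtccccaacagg
MUC16, probe 2: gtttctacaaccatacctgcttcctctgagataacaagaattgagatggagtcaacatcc
WFDC2, probe 1: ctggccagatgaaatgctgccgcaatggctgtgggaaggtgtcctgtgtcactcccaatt
WFDC2, probe 2: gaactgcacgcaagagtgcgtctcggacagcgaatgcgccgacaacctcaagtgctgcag
LCN2: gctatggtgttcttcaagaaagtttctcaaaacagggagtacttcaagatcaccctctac
MSLN: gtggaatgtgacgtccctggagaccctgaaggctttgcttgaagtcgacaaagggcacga

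On hg19, probe 1 of MUC1 lies on the minus strand at chr1:155158652-155159726. This stretch is 1075 bases long, so the probe crosses an intron and reads spliced RNA. Probe 1 of MUC16, at chr19:8966801-8968923 on the minus strand, crosses one too, over 2123 bases. The other 12 probes each match 60 unbroken bases. The GC content of the 14 probes ran from 35% (KLK7) to 60% (probe 2 of WFDC2).

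**Figure D1:**
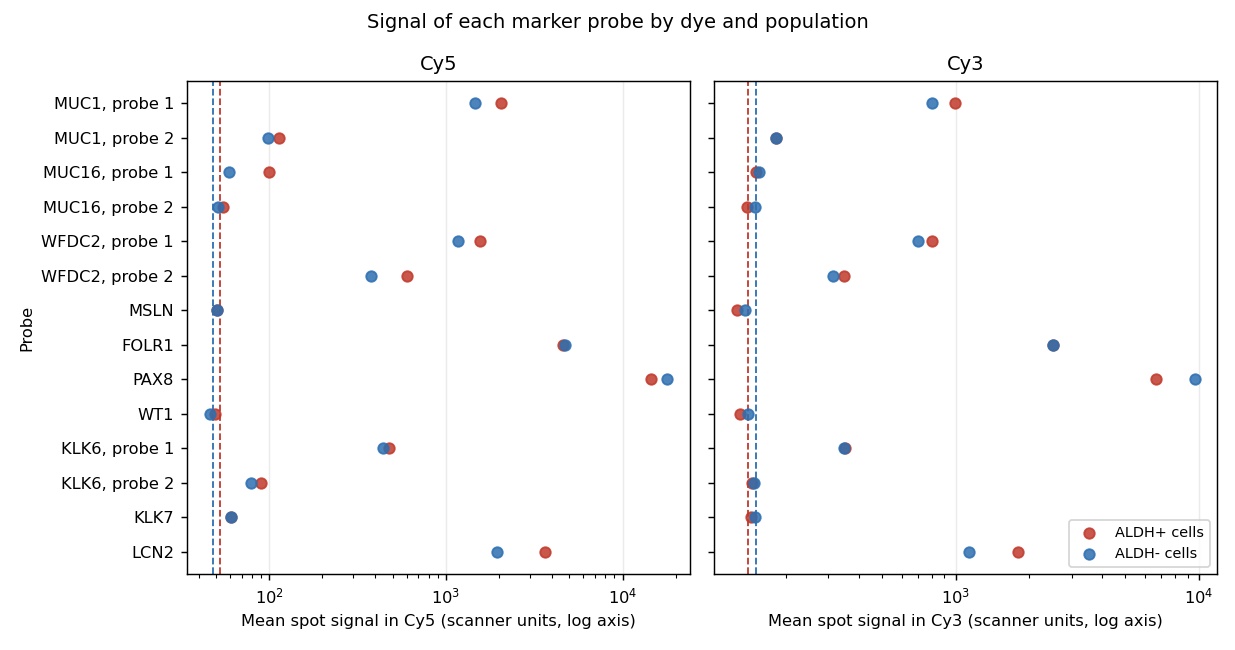
Mean spot signal of each of the 14 marker probes (log axis, scanner units), in Cy5 on the left and in Cy3 on the right, for ALDH+ cells (red) and ALDH- cells (blue). Dashed lines are the 95th percentiles of the negative control spots in the same dye and population. PAX8 is below its ALDH- level and LCN2 above it in either dye, while WT1 and MSLN lie close to the dashed lines.

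PAX8 had the largest difference of the 6 measured markers. Its probe, at chr2:113973575-113973634 on the minus strand, had a signal of 14453 in ALDH+ cells and 17905 in ALDH- cells in Cy5. In Cy3 it had 6652 in ALDH+ cells and 9622 in ALDH- cells. The signal was thus lower in ALDH+ cells in each dye, and 52.6 times or more the median of the negative controls in every channel. The log2 ratio of ALDH+ to ALDH- cells was -0.83 on the first array (ALDH+ in Cy5) and -0.64 on the second (ALDH+ in Cy3), with a mean of -0.74 (technical SD 0.14). The difference was larger in size than that of 97% of the measured genes. Its size rests on the normalization, since centring each array on its median instead of the brightness-dependent loess gave -0.42, which is under 1.5-fold.

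WT1, the other transcription factor, was not detected. Its probe, at chr11:32410332-32410391 on the minus strand, is printed 10 times on each array, which gives a spread between spots. In Cy5 the 10 spots ran from 43.4 to 55.3 in ALDH+ cells (median 48.5), where the negative controls had a median of 44.8. In ALDH- cells they ran from 42.8 to 56.3 (median 46.7), where the negative controls had 43. The SD between spots in Cy5 was 3.63 in ALDH+ cells, whose median lay just over 1 SD above that of the negative controls. In ALDH- cells it was 4.27, and the median lay within 1 SD. In Cy3 the medians were 131.7 in ALDH+ cells and 139.3 in ALDH- cells, each within 1 SD between spots (6.73 and 8.87) of the negative controls. These spreads cover all 10 spots, also those flagged as outliers on the second array. A ratio has no meaning at this level and is not given.

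Of the secreted markers, LCN2, an iron-siderophore binding protein of innate immunity, was higher in ALDH+ cells. Its probe lies at chr9:130914244-130914303 on the plus strand. In Cy5 it had a signal of 3656 in ALDH+ cells and 1942 in ALDH- cells, and in Cy3 one of 1813 and 1133. The raw signal was higher in ALDH+ cells in each dye. The log2 ratio was 0.67 on one array and 0.66 on the other, with a mean of 0.66 (technical SD 0.0084), which is 1.58-fold. This was larger in size than the ratio of 95.6% of the measured genes. With the ratio of the array software the arrays gave 0.76 and 0.64, so their close match rests on the processing. The median technical SD over all measured genes was 0.111.

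WFDC2, a small protein with WAP domains that is used as a serum marker, was read at 2 sites whose probes start 182 bases apart in the transcript. Probe 1, at chr20:44108669-44108728 on the plus strand, had a signal of 1560 in ALDH+ cells and 1168 in ALDH- cells in Cy5, and of 797 and 702 in Cy3. Probe 2, at chr20:44099078-44099137, had 601 and 375 in Cy5, and 348 and 314 in Cy3. The raw signal was higher in ALDH+ cells in all 4 comparisons within a dye, which are made across arrays without normalization. The mean log2 ratio was 0.20 for probe 1 (technical SD 0.12) and 0.39 for probe 2 (technical SD 0.20). That of probe 1 was larger in size than the ratio of 59.4% of the measured genes. Both arrays gave a positive ratio for each probe, and the probes differed by about the spread between the arrays.

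KLK6, a trypsin-like protease, did not differ beyond the spread between the arrays. Its probe 1, at chr19:51461888-51461947 on the minus strand, had a signal of 479 in ALDH+ cells and 443 in ALDH- cells in Cy5, and of 351 and 349 in Cy3. The log2 ratio was 0.00 and 0.05 on the arrays, with a mean of 0.02 (technical SD 0.032). Probe 2, which starts 989 bases nearer the 5′ end of the transcript, at chr19:51466725-51466784, was well above background in Cy5 alone, with 90.2 in ALDH+ cells and 79.2 in ALDH- cells. The log2 ratio of this dim probe was 0.36 and -0.29 on the arrays, so it turned with the dye.

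KLK7, a chymotrypsin-like protease encoded next to KLK6 on chromosome 19, was not well above background on any array. Its probe at chr19:51480677-51480736 had 60.9 in ALDH+ cells and 61.2 in ALDH- cells in Cy5. In Cy3 it had 144 and 149. In Cy5 it was above the 95th percentile of the negative controls (53 with ALDH+ cells and 48.1 with ALDH- cells), in both populations alike.

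Of the surface markers, MUC1 was somewhat higher in ALDH+ cells. Probe 1 had a signal of 2060 in ALDH+ cells and 1458 in ALDH- cells in Cy5, and of 996 and 800 in Cy3. The log2 ratio was 0.45 and 0.15 on the arrays, with a mean of 0.30 (technical SD 0.21), which is 1.23-fold. Its size was above that of 75.2% of the measured genes, so many genes differed by more. Probe 2, at chr1:155161975-155162034 and annotated to other transcript variants, was well above background in Cy5 alone, with 114 in ALDH+ cells and 99 in ALDH- cells, and had a mean log2 ratio of 0.11 (technical SD 0.13).

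MUC16, the source of CA125, lay close to background. Probe 1 had a signal of 100 in ALDH+ cells and 59.3 in ALDH- cells in Cy5, where the negative controls had medians of 44.8 and 43. In Cy3 it had 151 in ALDH+ cells and 156 in ALDH- cells, both just over the 95th percentile of the negative controls (139.7 and 151.3). The software flagged it as well above background in Cy5 with ALDH+ cells, and in no other channel. The raw signal was thus higher in ALDH+ cells in Cy5 and lower in Cy3. The negative controls in Cy3 were also lower with ALDH+ cells (median 126.4 against 134.1). Against these medians the Cy3 signal was 1.19 times in ALDH+ cells and 1.17 times in ALDH- cells. After normexp and loess the log2 ratio was positive on each array, at 0.18 and 0.26. The mean log2 ratio was 0.22 after normexp, 0.16 with no background correction and 1.11 with the ratio of the array software, which has its own background subtraction. Its size depends on the background correction, and no fold is given. Probe 2 of MUC16, which starts 16158 bases nearer the 5′ end of this very long transcript, at chr19:9060452-9060511, was not well above background on any array, with 55.1 in ALDH+ cells and 51.2 in ALDH- cells in Cy5.

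MSLN was close to the negative controls and not well above background in any channel. Its probe at chr16:816418-816477 had 50.6 in ALDH+ cells and 50.7 in ALDH- cells in Cy5, and 126 and 136 in Cy3. Of these, the Cy5 signal of ALDH- cells was over the 95th percentile of the negative controls. FOLR1, which takes up folate by endocytosis, was well above background in every channel. Its probe at chr11:71907268-71907327 had 4579 in ALDH+ cells and 4725 in ALDH- cells in Cy5, and 2515 and 2508 in Cy3, so the raw signals were almost equal in each dye. After loess the log2 ratio of FOLR1 was -0.28 and -0.14 on the arrays, with a mean of -0.21 (technical SD 0.10), and with median centring it was -0.01.

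**Figure D2:**
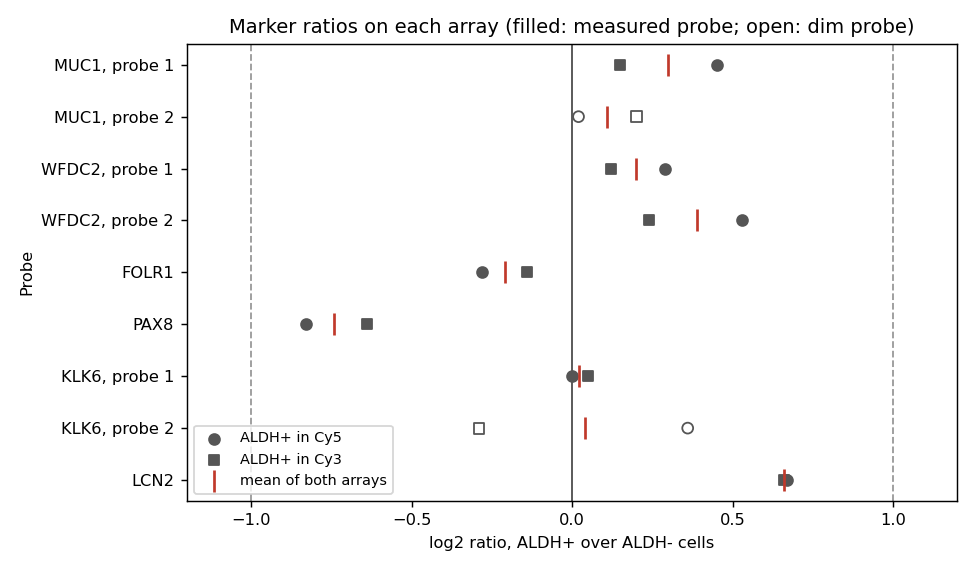
The log2 ratio of ALDH+ to ALDH- cells for the 9 marker probes that were well above background in each population on at least 1 array, for the array with ALDH+ in Cy5 (circles), the array with ALDH+ in Cy3 (squares) and their mean (red line), with open symbols for probes not measured on both arrays; dashed lines are 2-fold. PAX8 is below 0 and LCN2 above 0 on each array, and probe 2 of KLK6 changes side with the dye.

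Among the 6 measured markers, 0 were more than 2-fold higher in ALDH+ cells, where 0.211% of all measured genes were, and 0 were more than 2-fold lower, where 0.707% were. At 1.5-fold, LCN2 was the 1 marker that was higher (1.51% of all measured genes) and PAX8 the 1 that was lower (4.59%). The median log2 ratio of the 6 markers was 0.11 (0.14 and 0.082 on the arrays), beside -0.0023 over all measured genes. In the order of their ratios the markers ran LCN2, MUC1, WFDC2, KLK6, FOLR1 and PAX8. MUC1 and WFDC2 lay within the technical SD of each other, and the other steps in this order were larger than the technical SDs of the markers they part. This holds for 1 probe a gene and for loess. Probe 2 of WFDC2, at 0.39, lay above MUC1, at 0.30. With median centring KLK6 had 0.08 and FOLR1 -0.01, and so lay closer together. On both arrays 4 of the 6 markers had a positive ratio (33.7% of all measured genes) and 2 a negative one (36.1%). The 4 include KLK6, whose ratio on the first array was 0.00 and, with the array software, -0.06.

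**Figure D3:**
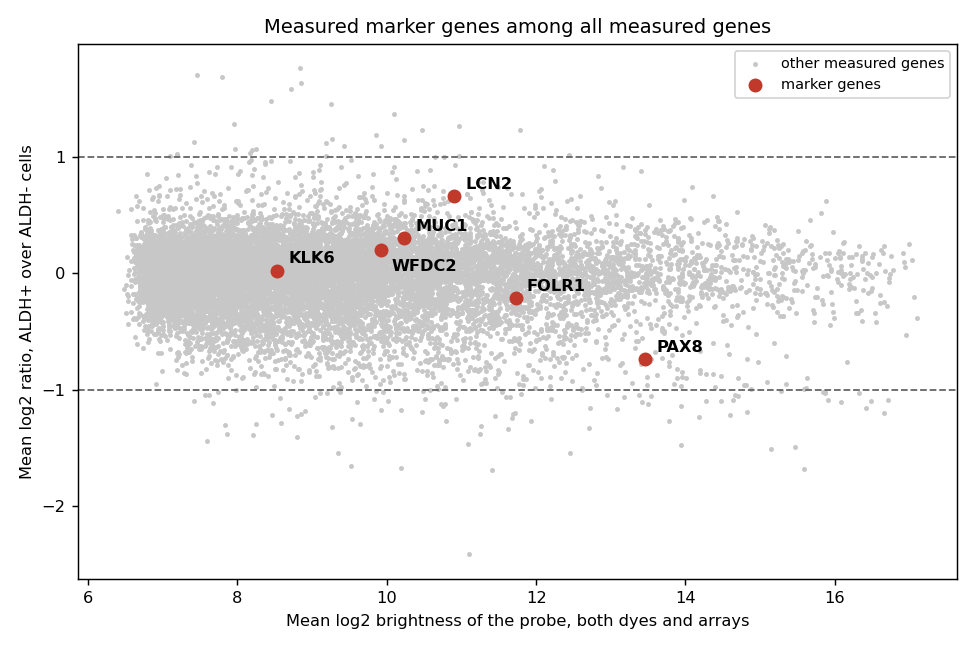
Mean log2 ratio of ALDH+ to ALDH- cells against the mean log2 brightness of the probe for 13720 measured genes (grey), with the 6 measured markers in red; dashed lines are 2-fold. All 6 lie between the dashed lines, with LCN2 and PAX8 nearest to them.

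The label of the line was checked against marker genes of cell types. All 6 epithelial markers (EPCAM, KRT7, KRT8, KRT18, KRT19 and CDH1) were measured in both populations, with log2 ratios from -0.30 to 0.13. The clear cell markers NAPSA, GPC3 and AMACR were measured in both populations as well, and they were lower in ALDH+ cells on each array. GPC3, a surface proteoglycan, had the largest difference of them, with a signal of 1272 in ALDH+ cells and 2059 in ALDH- cells in Cy5 and a mean log2 ratio of -0.86 (technical SD 0.062). The hormone receptors ESR1 and PGR were not measured. CDKN2A (p16) was, at -0.40. Of markers of other cells, 0 of 6 fibroblast genes and 2 of 4 mesothelial genes (UPK3B and DES) were measured. So were 1 of 4 endothelial genes (CDH5) and 3 of 6 leukocyte genes on the arrays (PTPRC, CD3D and CD14). Of all genes on the arrays, 50.3% were measured. The mesothelial and leukocyte counts were near this share and say little of these cell types. The same share stands beside the counts of the lists that follow. The leukocyte genes were dim, with Cy5 signals between 93.1 and 312, and had log2 ratios from -0.15 to 0.45. CD3E and MS4A1 were not well above background in any channel. CD14 had the highest ratio of them, 0.45 (technical SD 0.18), and its part in the higher ratio of LCN2, which myeloid cells also make, was not tested.

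Most of the other mucins and kallikreins were not measured, where 50.3% of all genes on the arrays were. Among 12 other mucins on the arrays 4 were measured, MUC2, MUC4, MUC5AC and MUC6, and their log2 ratios lay between -0.16 and 0.07. MUC5AC was not well above background in Cy3 with ALDH+ cells. Among 13 other kallikrein-related peptidases 2 were measured, KLK2 and KLK8, with -0.11 and -0.24. Neither reached 1.5-fold. KLK2 was not well above background in Cy3 with ALDH+ cells, and its signals in Cy5 were 121 in ALDH+ cells and 119 in ALDH- cells, so no direction is given for it. MUC20, KLK3 and KLK9 were well above background in Cy5 in both populations, but not in Cy3.

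Among 13 other WAP domain proteins, most of them encoded in a cluster with WFDC2 on chromosome 20, 3 were measured (50.3% of all genes). SLPI, a secreted inhibitor of neutrophil elastase, was the 1 past 1.5-fold. In Cy5 it had a signal of 9437 in ALDH+ cells and 4076 in ALDH- cells, and in Cy3 one of 4537 and 2204. Its log2 ratio was 0.90 and 0.93 on the arrays, with a mean of 0.92 (technical SD 0.024), 1.89-fold. PI3, a relative of SLPI, was not well above background in Cy3 with ALDH+ cells, and had 114 in ALDH+ cells and 102 in ALDH- cells in Cy5. SLPI thus differed in the same direction as WFDC2 and by more than either WFDC2 probe.

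Of 10 genes linked to LCN2 through its receptors, iron handling or control, 7 were measured. NFKBIZ, a nuclear co-activator that is needed for the induction of LCN2, was the 1 past 1.5-fold, and it was lower in ALDH+ cells, at -0.73 and -0.65 on the arrays (mean -0.69, technical SD 0.057). FTL, the ferritin light chain, was 1.40-fold higher in ALDH+ cells, with 0.50 and 0.48 on the arrays. LRP2, a receptor of LCN2, had -0.36, and SLC22A17, another, had 0.15. Each of these receptors was well above background on both arrays in one population only.

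Among 19 other tumour antigens of the ovary, 14 were measured. VTCN1 (B7-H4), a surface inhibitor of T cells, had the highest ratio of them after normexp with an offset of 50 and loess. In Cy5 it had a signal of 12011 in ALDH+ cells and 4924 in ALDH- cells, and in Cy3 one of 6212 and 2688. Its log2 ratio was 0.91 and 1.11 on the arrays, with a mean of 1.01 (technical SD 0.14), 2.02-fold, so it passed 2-fold by less than that SD. L1CAM, an adhesion molecule, had 0.84 (technical SD 0.18) and was above VTCN1 with an offset of 10 (1.11 against 1.04) and with the ratio of the array software (1.67 against 1.06). B2M, the light chain of class I antigen presentation, had 0.63 (technical SD 0.10). SPP1 (osteopontin), a secreted phosphoprotein, was lower in ALDH+ cells, at -0.60 (technical SD 0.0093), but at -0.16 with median centring. Of these 14, 3 were past 1.5-fold higher and 1 was lower, and their median log2 ratio was 0.0015.

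**Figure D4:**
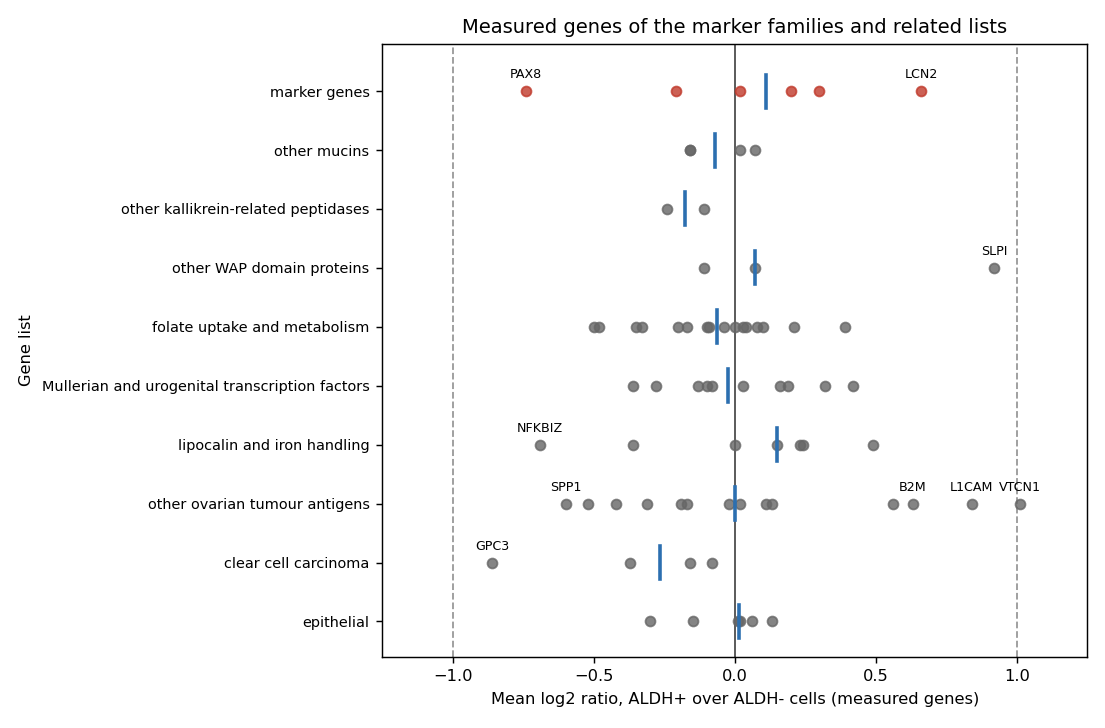
Mean log2 ratio of ALDH+ to ALDH- cells of the measured genes (points) of the marker list and of related lists, with the median of each list in blue and 2-fold as dashed lines; genes past 1.5-fold are named. VTCN1 at 1.01 is the 1 gene beyond a dashed line, and PAX8 and LCN2 are the 2 markers past 1.5-fold.

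**Figure D5:**
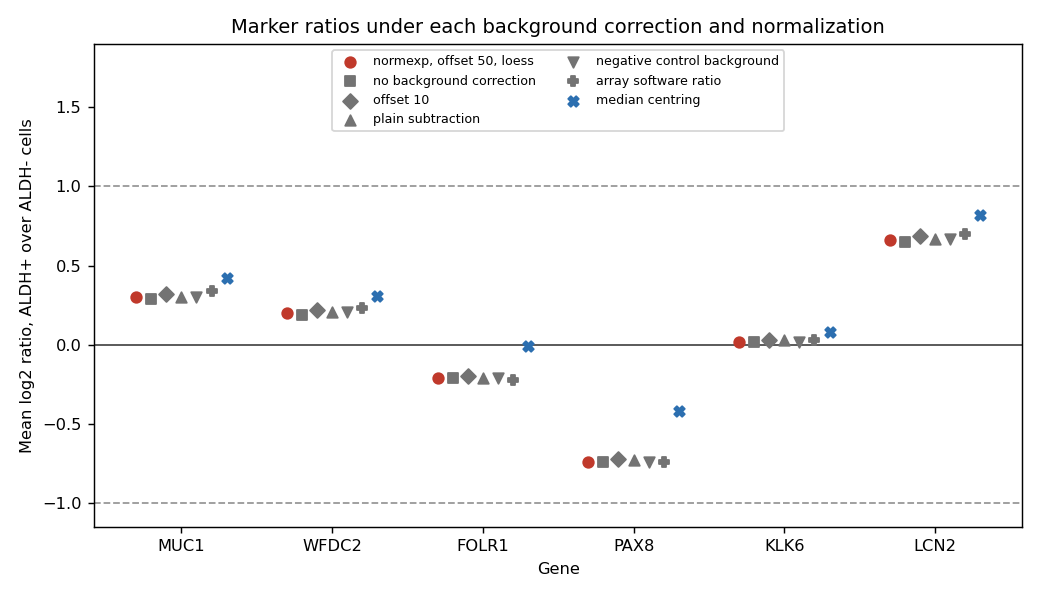
Mean log2 ratio of the 6 measured markers under 7 combinations of background correction and normalization (symbols); dashed lines are 2-fold. Median centring moves all 6 upward, with PAX8 going from -0.74 to -0.42 and FOLR1 from -0.21 to -0.01, while the other settings lie close together.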

How the data were processed

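RMG1 cells, sorted into ALDH+ and ALDH-, were compared on 2 two-color arrays. Since the second array repeats the extracts of the first with dyes exchanged, the pair is 1 replicate. The authors deposited the intensity of each spot and of its local background, without normalization, as read by Agilent Feature Extraction (10.7.3.1 per the file headers, 8.5.1.1 per the submitters' processing notes), and that software's log10 ratio, which has a background subtraction and dye normalization of its own. A further table deposited by the authors joins these log10 ratios; its values equalled the software's at 43118 gene spots. Probe coordinates are on hg19, per the file headers.

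Mean signals were corrected with normexp (offset 50) and normalized by loess within each array in R 4.3.3 with limma 3.58.1. Control and outlier spots were left out, spots of a probe were averaged, and ratios were turned to ALDH+ over ALDH- cells and averaged over both arrays (Python 3.11.15, pandas 2.3.3, numpy 2.4.6). An array flag set for more than 50% of a probe's spots called it well above background. The brightest measured probe stood for a gene. Symbols came from RefSeq (GRCh38.p14, names and neighbours only) for 25422 of 34127 probes.

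The members and lists were chosen with earlier results of these data known. Besides the 10 markers, up to 4 genes a list were named, by size among those past 1.5-fold with the same sign on both arrays, or else the 2 largest; genes of the cell type lists, MUC2, MUC4, MUC20, KLK3, KLK9, LRP2 and SLC22A17 were named for completeness after their values were seen. A few genes of the lists are counted but not reported by name here. Alternatives were other background corrections and normalizations, probe rules, filters, thresholds and each array alone. Steps were tested on simulated data. No test was run, and the number of arrays limits the precision. No annotation of hg19 was used here, so exons and untranslated regions are not given.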

Additional observations from a re-analysis of the deposited data

How the results depend on the processing

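The count of measured markers more than 2-fold higher or lower stayed at 0 under every background correction, normalization and probe rule that was run. It was also 0 with every filter, with each array alone and with 2-fold required on each array. With a threshold of 1.5-fold it became 1 higher (LCN2) and 1 lower (PAX8). Without a filter on dim probes all 10 markers were counted, but only for ratios after normexp and loess. Probe 1 of MUC16, which was not measured, was thus left out under the other settings. With the ratio of the array software this probe had log2 ratios of 1.14 and 1.08, past 2-fold on each array. It was well above background only in Cy5 with ALDH+ cells, and its ratio depends on the background correction. The count of markers well above background in both populations was 6, and 7 when the limit was the 95th percentile of the negative control spots; with each array alone it was 6. The median log2 ratio of 0.11 was 0.20 with median centring, 0.16 with the mean over measured probes and 0.043 with no filter on dim probes, which brings in all 10 markers; with each array alone it was 0.082 and 0.14. Of 72 values of the 6 measured markers under these alternatives, 8 moved by more than the technical SD and 0 changed sign. These counts say little about stability. A single-array value cannot move past that SD, which comes from the same arrays. The joined table repeats the software's ratios, and the filters on dim probes left these values as they were. For LCN2, with an SD of 0.0084, very small moves were counted. PAX8 ran from -0.83 to -0.42 and LCN2 from 0.65 to 0.82. The cause of these moves was not tested. With median centring, the median over all measured genes was 0.073. It was 0.557 on the first array and -0.432 on the second, so each array kept a shift that turned with the dye. Over all genes, the 29 higher and 97 lower past 2-fold became 53 and 45 with median centring, 65 and 124 with an offset of 10, and 137 and 276 with the software's ratio, as with the joined table. Low signal over background limits what can be said of MUC16, KLK7, MSLN, WT1 and the second probes of MUC1 and KLK6. No paired analysis was possible because each population is 1 sample and nothing was tested.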

Other observations

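Other genes of folate uptake and metabolism were measured around FOLR1. Of 17 on the arrays 16 were measured, and 0 passed 1.5-fold, with a median log2 ratio of -0.066. SLC46A1, the proton-coupled folate transporter, had the largest difference, at -0.64 and -0.36 on the arrays (mean -0.50). GGH, which trims the glutamate tail of folates, had 0.31 and 0.47 (mean 0.39). With the ratio of the array software, SLC46A1 had -0.67. TYMS, which makes thymidylate, had a mean of -0.09.

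Transcription factors of the Müllerian and urogenital tract were set beside PAX8 and WT1. Of 14 on the arrays 10 were measured and 0 passed 1.5-fold. SOX17, which works with PAX8 in ovarian carcinoma, had 0.13 and 0.25 on the arrays (mean 0.19), so it did not share the lower ratio of PAX8. LHX1 had a mean of -0.36 and FOXJ1, a factor of ciliated cells, one of -0.28. WTAP, a subunit of the RNA methylation complex that was named for its binding to WT1, had 0.42. PAX2, the close relative of PAX8, was not measured in either population. GGH, TYMS, SOX17, FOXJ1 and PAX2 were named after their values were seen.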
